A study of Mus musculus with 9 samples.

Results

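Genes of the integrins, the laminins and the hemidesmosome were followed through bulk RNA sequencing of prostate tumours and their metastases in mice. The set held every gene whose mouse symbol has the form of an integrin alpha chain, an integrin beta chain or a laminin chain, together with Col17a1, Dst and Plec, which encode other hemidesmosome proteins. It came to 40 of the 47069 genes counted: 18 integrin alpha, 8 integrin beta, 5 laminin alpha, 3 laminin beta and 3 laminin gamma genes, and those 3 others. There were 9 libraries, 3 of proximal metastases in epididymal fat, 3 of distal metastases and 3 of primary prostate tumours. Every animal was a C57BL/6 mouse, about 9 to 10 months old, whose prostate carried Ctnnb1pc(ex3)delta/+, a deletion of exon 3 in 1 Ctnnb1 allele. Ctnnb1 encodes beta-catenin, and the protein made without that exon escapes degradation. All 3 groups shared a further engineered allele, so the mice of all groups had 1 genotype. The libraries were of bulk tissue, and some also held marker transcripts of other tissues, as given further on. The labels speak of samples matched within 3 mice but do not say which belong together, and the driver of the deletion is not given in the sources used here. For the distal group the labels name the diaphragm in one field and the lung in another.

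Integrins are cell surface receptors made of an alpha and a beta chain, and they bind matrix proteins such as laminin, collagen and fibronectin or counter-receptors on other cells. Laminins are trimers of an alpha, a beta and a gamma chain and form the core of the basement membrane on which epithelia rest. In basal cells of epithelia, the prostate included, the integrin of the Itga6 and Itgb4 chains holds the cell to laminin-332, a trimer that holds the Lama3 and Lamb3 chains. Together with collagen XVII (Col17a1), plectin (Plec) and the epithelial form of dystonin (Dst) this integrin builds the hemidesmosome, which ties keratin filaments to the basement membrane.

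Promoter sequence was at hand for 25 of the 40 members, as 29 RefSeq windows on GRCm38.p6 of 300 bases, 250 before and 50 after a transcript start. The windows of Col17a1, Dst, Itgax, Itgb6 and Lamb3 are shown because these are the called members for which a window was at hand, together with Lamb3, the member that stood higher in every metastasis than in any primary tumour, as given further on. Each is written 5′ to 3′ on the strand of the gene, and where a gene had more than 1 window the most 5′ one is given. They lie at chr19:47691993-47692292 (minus) for Col17a1, chr1:34011345-34011644 (plus) for Dst, chr7:128129300-128129599 (plus) for Itgax, chr2:60722554-60722853 (minus) for Itgb6 and chr1:193301744-193302043 (plus) for Lamb3. The starts of Dst and Lamb3 lie inside the span of their GENCODE gene, downstream of its 5′ end. Capitals mark the Sp1/KLF motif GGGCGG in Dst and the AP-1 motif TGANTCA in Itgax.
Col17a1: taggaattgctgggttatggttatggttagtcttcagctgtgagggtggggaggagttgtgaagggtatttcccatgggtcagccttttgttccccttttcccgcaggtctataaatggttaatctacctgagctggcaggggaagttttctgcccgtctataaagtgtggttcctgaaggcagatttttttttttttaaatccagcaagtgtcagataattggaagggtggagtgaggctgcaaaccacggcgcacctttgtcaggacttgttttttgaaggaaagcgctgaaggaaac
Dst: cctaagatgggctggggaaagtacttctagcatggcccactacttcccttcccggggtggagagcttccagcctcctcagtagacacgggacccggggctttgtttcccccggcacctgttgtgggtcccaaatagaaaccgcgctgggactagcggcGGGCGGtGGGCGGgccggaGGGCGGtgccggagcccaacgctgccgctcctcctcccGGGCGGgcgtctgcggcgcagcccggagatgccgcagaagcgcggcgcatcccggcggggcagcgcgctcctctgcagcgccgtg
Itgax: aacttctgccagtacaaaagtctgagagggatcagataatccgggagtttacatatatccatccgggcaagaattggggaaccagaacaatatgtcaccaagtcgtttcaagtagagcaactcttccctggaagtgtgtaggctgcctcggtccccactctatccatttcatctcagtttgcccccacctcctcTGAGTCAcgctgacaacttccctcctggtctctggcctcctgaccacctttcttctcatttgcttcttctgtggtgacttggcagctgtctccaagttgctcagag
Itgb6: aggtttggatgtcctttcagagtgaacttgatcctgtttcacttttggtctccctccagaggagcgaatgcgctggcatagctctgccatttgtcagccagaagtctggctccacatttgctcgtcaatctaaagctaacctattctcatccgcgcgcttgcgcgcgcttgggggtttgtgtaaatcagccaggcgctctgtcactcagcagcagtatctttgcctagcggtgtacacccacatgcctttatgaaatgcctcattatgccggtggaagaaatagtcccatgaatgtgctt
Lamb3: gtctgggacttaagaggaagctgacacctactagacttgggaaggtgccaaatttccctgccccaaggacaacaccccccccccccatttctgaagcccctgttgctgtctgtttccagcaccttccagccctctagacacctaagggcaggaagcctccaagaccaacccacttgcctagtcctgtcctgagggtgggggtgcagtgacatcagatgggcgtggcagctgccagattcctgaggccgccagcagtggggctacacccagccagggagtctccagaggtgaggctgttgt

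Both strands of each window were searched for 3 motifs. The core CTTTGA of the TCF/LEF factors, through which beta-catenin acts on genes, was in 5 of the 29 member windows (17.2%) and in 16% of all 32851 windows. The 5 belonged to Itga1, Itga10, Itgam, Lama2 and Lamb2. TGANTCA was in 3 member windows (10.3%), of Itga3, Itga9 and Itgax, and in 7.81% of all windows. GGGCGG was in 13 member windows (44.8%) and in 35.7% of all, with 4 copies each in Dst and Lama5. The printed windows of Col17a1, Itgb6 and Lamb3 held none of the 3 motifs. Copies of the motifs do not overlap each other in the printed windows, and a match describes letters, not binding.

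Levels are given as CPM, a gene's reads per 1000000 reads counted in its library, with library sizes adjusted by edgeR's trimmed mean method. Before scaling 1 CPM stood for 28.3 to 40.4 counts, since library totals ran between 28334730 and 40408723. A gene was called where its Benjamini-Hochberg adjusted p, over all 18204 genes tested, was below 0.05 in edgeR's quasi-likelihood test. Libraries are numbered 1 to 3 within a group as names only, and p-values take the 9 libraries as independent, so they measure the spread between these libraries. Primary 1 stood nearer to the metastases than the other primary tumours did: its mean correlation with the 6 metastases, on log2(CPM + 1), was 0.975, against 0.868 for primary 2 and 0.907 for primary 3. Of the 39 members tested, 27 lay within the range of the 6 metastases in primary 1, 13 in primary 2 and 11 in primary 3, beside 70.8%, 20.7% and 29.5% of all tested genes. The members' median SD of log2 CPM was 0.41 in the proximal, 0.36 in the distal and 0.83 in the primary libraries. Over all tested genes it was 0.17, 0.16 and 0.60, so members spread more widely in each group. The 6 skeletal muscle markers summed to 3.93, 621 and 851 CPM in distal 1, 2 and 3 and to at most 2.89 CPM in any other library. Of the 5 lung epithelium markers, Sftpb, Sftpa1 and Scgb1a1 had no count in any distal library. Sftpc had 0, 0 and 0.0245 CPM in the proximal, 0.0750, 0 and 0.0667 CPM in the distal and 0 CPM in all primary libraries, and Ager had 1.37 to 1.60 CPM in the distal and 1.13 to 2.76 CPM in the other libraries. The epithelial marker Epcam had 163 to 310.4 CPM in the metastases and 226 to 380.2 CPM in the primary tumours.

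Both metastatic sites together, set against the primary tumours, gave 5 called members, and all 5 fell. They were the hemidesmosome genes Col17a1, Itgb4 and Dst, the epithelial integrin chain Itgb6 and the myeloid integrin chain Itgax. Of all tested genes, 3.68% were called lower and 0.033% higher. The median log2 fold change of the 39 members was -0.30, against -0.04 for all tested genes. It was -0.01 without primary 3 and -0.585 without proximal 2. Without overlap between the 6 metastases and the 3 primary tumours, 1 member stood higher and 5 lower, where 4.22% and 5.99% of all tested genes did so.

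**Figure D1:**
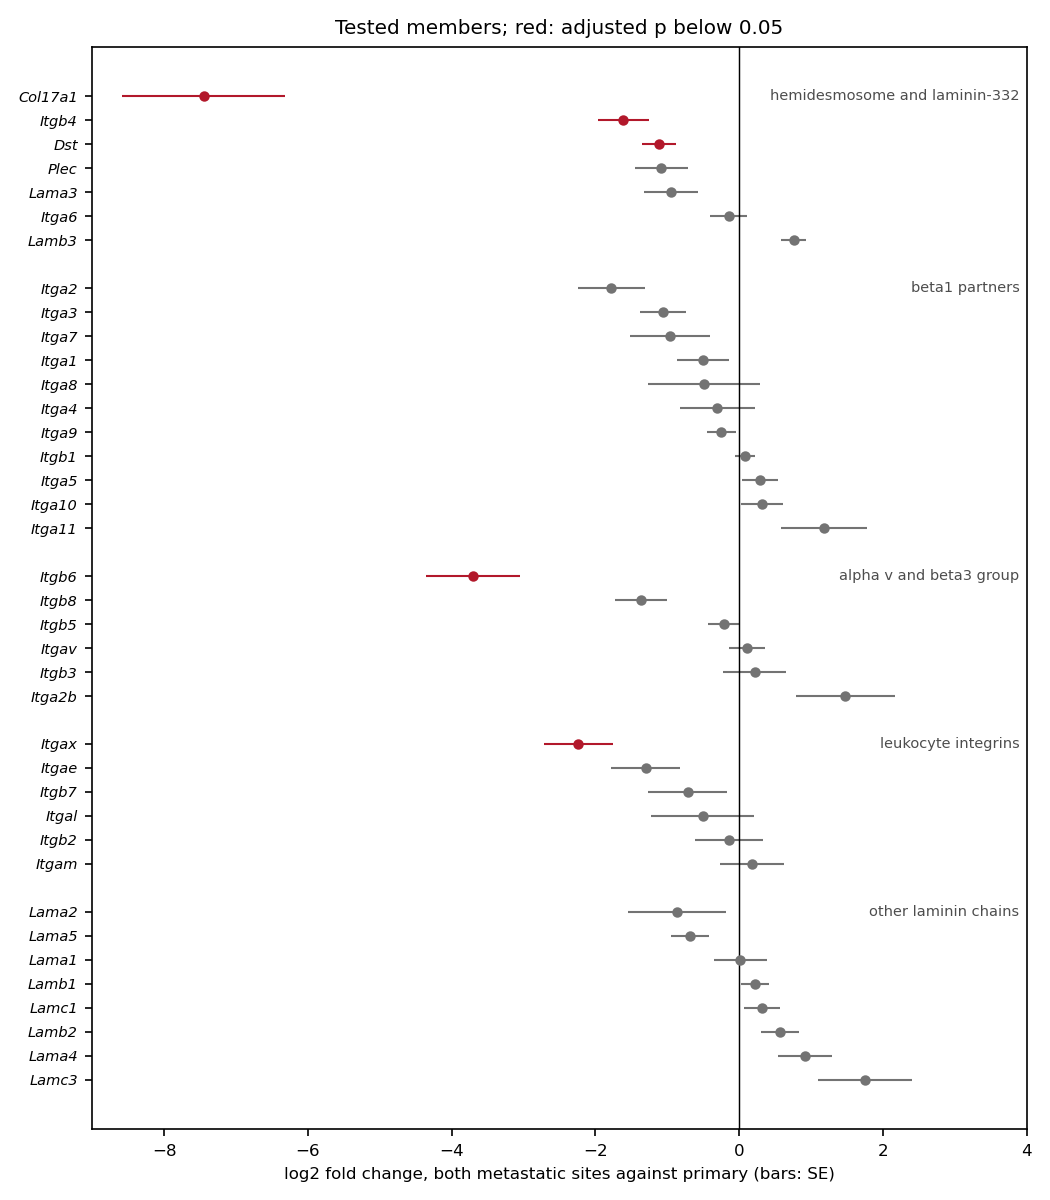
Log2 fold changes of tested members, both metastatic sites against the primary tumours, with the SE as bars, grouped by role. Red marks the 5 called genes, from -7.45 for Col17a1 to -1.12 for Dst. Among the hemidesmosome and laminin-332 genes plotted, Lamb3 at 0.76 stands alone above 0.

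Taken site by site, no member was called. In the proximal metastases edgeR's quasi-likelihood test called 0 of 39 members against the primary tumours, and 0.0494% of all genes. At an unadjusted p below 0.05 there were 2 members higher and 11 lower, where 3.86% and 14.3% of all tested genes were. DESeq2 called 9 members, limma-voom 0, and limma-voom with quality weights 11, beside 1486, 1 and 3607 of all 18204 tested genes. In the distal metastases edgeR's quasi-likelihood test again called 0 of 39 members, and 0.0879% of all genes. At an unadjusted p below 0.05 there were 3 members higher and 12 lower, where 3.89% and 13.5% of all tested genes were. Without distal 1 there were 9 members in both directions together, and 1974 of all genes. DESeq2 called 9 members, limma-voom 0, and limma-voom with quality weights 14, beside 1444, 1 and 3126 of all 18204 tested genes. Without overlap, 2 members stood higher and 8 lower in the proximal metastases (8.68% and 10.7% of all tested genes), and 3 higher and 6 lower in the distal metastases (8.4% and 10.4%). These comparisons share the 3 primary libraries, so neither repeats the other.

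The calls rested on few libraries. Without primary 1, 16 of 40 members were called, 12 lower and 4 higher, where 18.6% and 16.2% of the 19009 genes then tested were. The 4 higher were Lama4, Lamb2, Lamb3 and Itga11. Itgb6, Itgax, Dst and Itgb4 were called without primary 1 and lost their calls on leaving out any other library, with adjusted p values of up to 0.115, 0.196, 0.198 and 0.199 in edgeR's quasi-likelihood test. Col17a1 was called without primary 1 and without primary 2, and lost its call in the other 7 fits, with an adjusted p of up to 0.108. With all libraries, limma-voom called 0 of the 39 members in this comparison, DESeq2 11 and limma-voom with quality weights 14. Of all 18204 tested genes they called 97, 2590 and 3871, in that order. When genes needed at least 1 CPM in 3 libraries, edgeR's quasi-likelihood test called only Col17a1 and Itgb6 among the members, and 458 of all genes. In none of the 9 fits that left out 1 library did any of the 5 genes change direction.

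**Figure D2:**
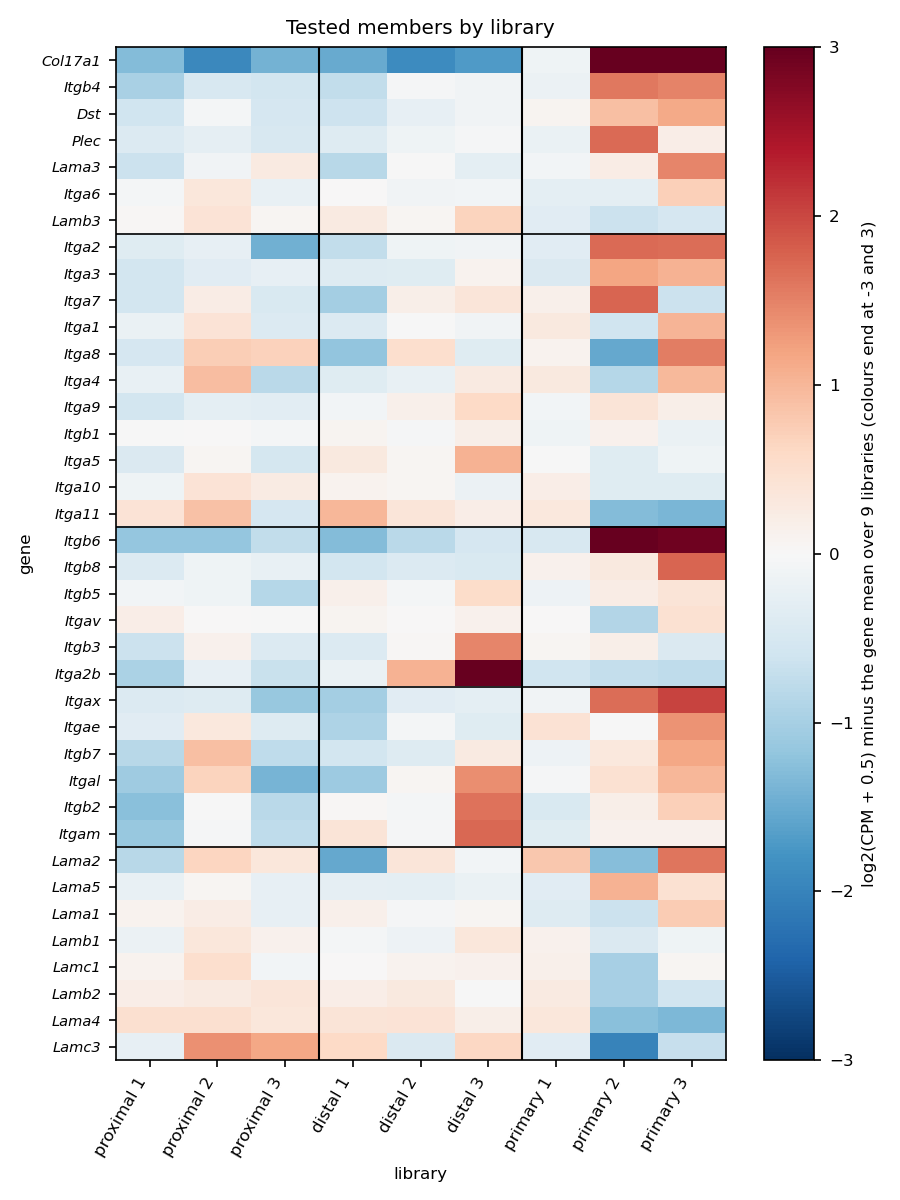
Tested members (rows, grouped by role) in each of the 9 libraries (columns), as log2(CPM + 0.5) minus the mean of the gene over the 9 libraries, red above and blue below it, with colours ending at -3 and 3. Col17a1 and Itgb6 are deep red in primary 2 and 3, and in primary 1 both lie just below the mean of the gene. Itga2b is deep red in distal 3.

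Among the 8 genes of the hemidesmosome and laminin-332, 3 fell, none rose and 5 did not pass the test. For comparison, 3.68% of all tested genes were called lower and 0.033% higher. The median log2 fold change of the 8 was -1.10, against -0.04 for all tested genes. Col17a1 (ENSMUSG00000025064, chromosome 19, 47646344 to 47692094, minus strand on GRCm38) encodes the transmembrane collagen of the hemidesmosome. It had 0.783, 0.332 and 0.686 CPM in proximal 1, 2 and 3 and 0.6002, 0.357 and 0.467 CPM in distal 1, 2 and 3, against 2.36, 37.9 and 242 CPM in primary 1, 2 and 3. Every metastasis lay below every primary tumour, and the primary tumours were far apart among themselves. The log2 fold change was -7.45 (SE 1.137, edgeR's quasi-likelihood test, adjusted p = 0.0209), and -5.22 without primary 3.

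Itgb4 (ENSMUSG00000020758, chromosome 11, 115974709 to 116008412, plus strand) encodes the beta chain that pairs with the Itga6 chain alone. It had 45.5, 63.5 and 60.3 CPM in the proximal and 53.3, 87.0 and 83.2 CPM in the distal metastases, against 78.4, 268 and 249 CPM in the primary tumours. Primary 1 fell within the distal range, and primary 2 and 3 stood above every metastasis. Itgb4 fell by 1.62 on the log2 scale (SE 0.36, edgeR's quasi-likelihood test, adjusted p = 0.0498). Exons of B230344G16Rik lie across those of Itgb4 on the other strand, and since the strand setting of the counting is not given in the sources used here, its counts are uncertain to that extent.

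Dst (ENSMUSG00000026131, chromosome 1, 33908225 to 34308661, plus strand) encodes dystonin, whose epithelial form links keratin filaments to the hemidesmosome, while its neuronal and muscle forms are counted at the same gene. The levels were 36.7, 53.2 and 39.2 CPM in the proximal and 36.3, 47.0 and 52.2 CPM in the distal metastases, against 58.8, 105 and 124 CPM in the primary tumours. No metastasis reached the lowest primary tumour. The log2 fold change was -1.12 (SE 0.24, edgeR's quasi-likelihood test, adjusted p = 0.0487). Dst shares exon positions with Gm26788 and A930005N03Rik on the other strand, with the same uncertainty.

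Itga6, the alpha partner of Itgb4, also pairs with the Itgb1 chain. It had 318, 420.4 and 288 CPM in the proximal and 336, 308 and 313 CPM in the distal metastases, against 274, 272 and 552 CPM in the primary tumours. The groups overlapped, and only primary 3 stood above all metastases. The log2 fold change of -0.15 (SE 0.26) was not called by edgeR's quasi-likelihood test (adjusted p = 0.702), and it was 0.28 without primary 3.

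Plec encodes plectin, the linker between the Itgb4 tail and keratin filaments, which many other cell types also make. It had 247, 271 and 234 CPM in the proximal and 250, 299.7 and 315 CPM in the distal metastases, against 283, 1053 and 373 CPM in the primary tumours. Primary 2 and 3 stood above all metastases and primary 1 among them. The log2 fold change was -1.08 (SE 0.37, edgeR's quasi-likelihood test, adjusted p = 0.140, not called), and -0.29 without primary 2. Plec shares exon positions with Parp10 on the same strand.

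**Figure D3:**
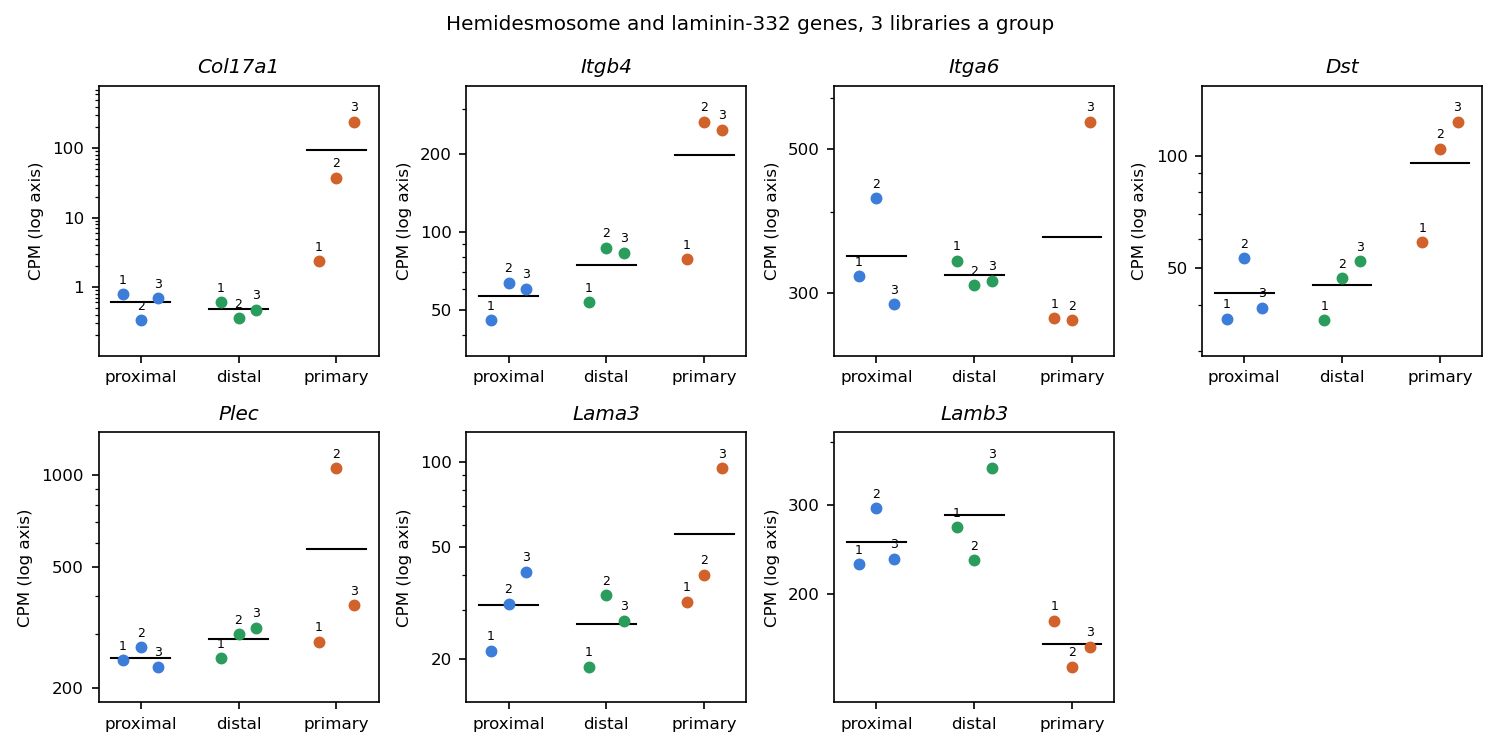
CPM (log axes) of hemidesmosome and laminin-332 genes, with each point a numbered library and a line at the group mean. Col17a1 lies between 0.332 and 0.783 CPM in the 6 metastases and between 2.36 and 242 CPM in the primary tumours. In Lamb3 all metastases stand above the primary tumours.

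Lama3 and Lamb3, chains of laminin-332, differed in direction without a call. Lamb3, the beta chain, had 229, 296 and 235 CPM in the proximal and 272, 234 and 356 CPM in the distal metastases, against 177, 144 and 157 CPM in the primary tumours. All 6 metastases stood above all 3 primary tumours, as in no other tested member. Its log2 fold change was 0.76 (SE 0.18), and the adjusted p of 0.0551 in edgeR's quasi-likelihood test missed the threshold. By site the log2 fold change was 0.67 (SE 0.20) in the proximal and 0.85 (SE 0.20) in the distal metastases.

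Lama3, the alpha chain, had 21.5, 31.5 and 40.9 CPM in the proximal and 18.9, 33.8 and 27.4 CPM in the distal metastases, against 32.1, 40.0 and 95.2 CPM in the primary tumours. The groups overlapped, with primary 3 the highest library. This gave a log2 fold change of -0.95 (SE 0.37, edgeR's quasi-likelihood test, adjusted p = 0.176, not called), and -0.31 without primary 3. Gm29200 overlaps exons of Lama3 on the other strand.

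Partner chains were set against each other within a library, as ratios of CPM per kilobase of exon sequence. Lama3 over Lamb3 was 0.0577, 0.0655 and 0.107 in the proximal and 0.0427, 0.0890 and 0.0474 in the distal metastases, against 0.111, 0.172 and 0.373 in the primary tumours. Every primary tumour stood above every metastasis, primary 1 only just. Itga6 over Itgb4 was 5.44, 5.15 and 3.71 in the proximal and 4.90, 2.75 and 2.92 in the distal metastases, against 2.71, 0.788 and 1.72 in the primary tumours. Every metastasis had more Itga6 per Itgb4 than any primary tumour, by a narrow margin over primary 1. Other ratios computed in the same way overlapped. Itgb4 over Itgb1 was 0.0443 to 0.0855 in the metastases, against 0.0825, 0.236 and 0.275 in the primary tumours. Itga6 over Itga3 was 2.46 to 4.45 in the metastases, against 3.13, 0.9996 and 2.23 in the primary tumours. Lama5 over Lama3, Lamb2 over Lamb1 and Itgb6 over Itgb5 overlapped too. The ratios were not tested.

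**Figure D4:**
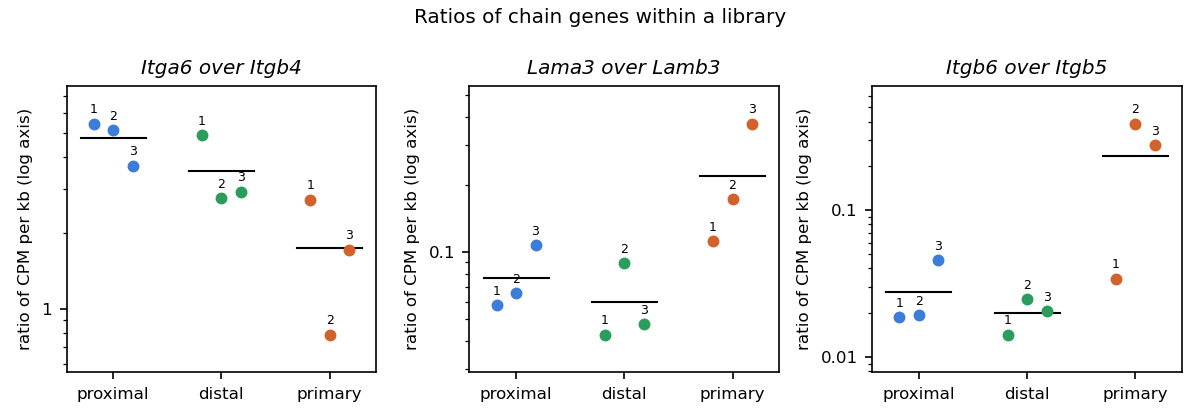
Ratios of CPM per kilobase (log axes) between genes of partner or alternative chains in each numbered library, with a line at the group mean. Itga6 over Itgb4 runs between 2.75 and 5.44 in the metastases and between 0.788 and 2.71 in the primary tumours. In the other panels primary 2 and 3 stand above all metastases.

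Markers of basal epithelium were lower in every metastasis than in any primary tumour, in their sum. Krt5, Krt14, Krt15, Krt17 and Trp63 summed to 10.8, 6.46 and 6.81 CPM in the proximal and 11.7, 11.6 and 25.6 CPM in the distal metastases, against 30.2, 572 and 2779 CPM in the primary tumours. All 5 were counted in every library, and Krt5 had 0.634 to 2.79 CPM in the metastases and 15.4, 144 and 1356 CPM in the primary tumours. Not every marker was separated in this way. Krt17 had 1.72 CPM in primary 1, below 2.40 CPM in proximal 3 and 4.53, 4.62 and 16.6 CPM in distal 1, 2 and 3. Krt14 had 6.98 CPM in primary 1 and 7.07 CPM in distal 3. The primary tumours had the same order in the basal sum and in Col17a1. The epithelial genes Epcam, Cdh1, Krt8, Krt18 and Krt19 summed to 1817 to 2708 CPM in the metastases and to 2735, 15080 and 4838 CPM in the primary tumours. In primary 3 the 5 seminal vesicle genes summed to 7501 CPM. In bulk RNA, fewer cells of a type and less RNA per cell cannot be told apart, and the part of these cell types in the differences was not tested.

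**Figure D5:**
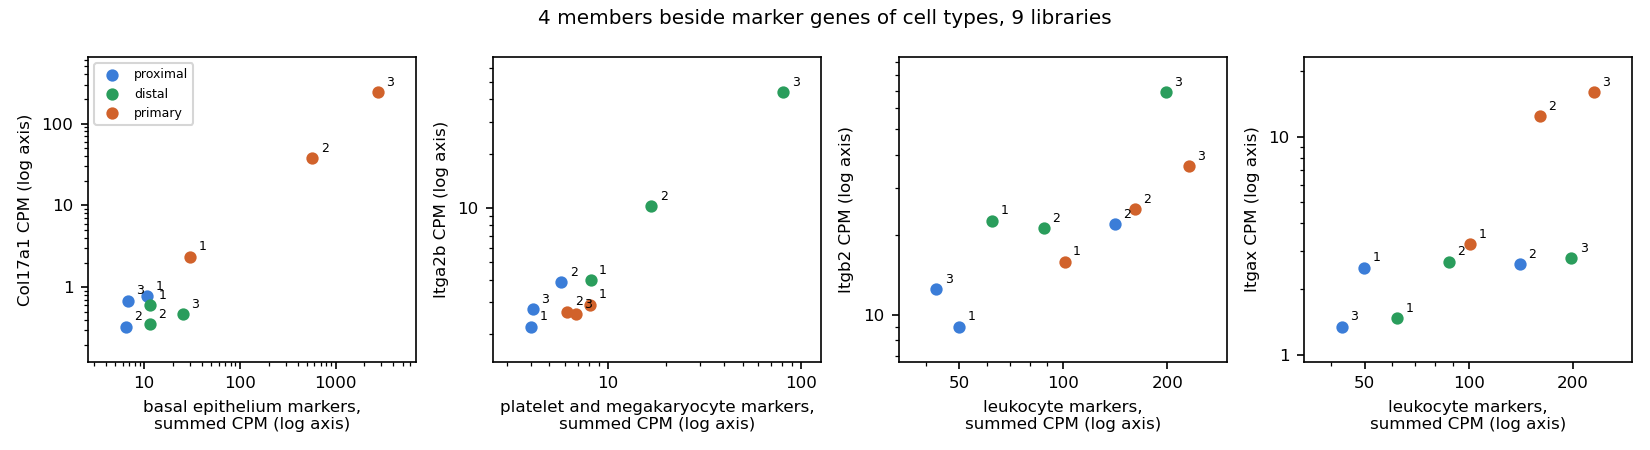
CPM of Col17a1, Itga2b, Itgb2 and Itgax (vertical log axes) against the summed CPM of cell type markers (horizontal log axes), with each point a numbered library. Col17a1 and the basal sum are both lowest in the 6 metastases and highest in primary 3. Itga2b and the platelet sum are both highest in distal 3, and Itgax is high in primary 2 and 3.

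Of the 11 genes of Itgb1 and its alpha partners, edgeR's quasi-likelihood test called 0, where 3.68% of all tested genes were called lower. Of the 11, 2 had an unadjusted p below 0.05, both lower, where 4483 of all 18204 tested genes had one in either direction. Their median log2 fold change was -0.30, against -0.04 for all tested genes. Itgb1, the common beta chain of collagen, laminin and fibronectin receptors, had 598, 607 and 578 CPM in the proximal and 637, 592 and 684 CPM in the distal metastases, against 553, 662 and 527 CPM in the primary tumours. The groups overlapped, and the log2 fold change of 0.08 (SE 0.14) had an adjusted p of 0.680 in edgeR's quasi-likelihood test.

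Itga2, the alpha chain of a collagen receptor, had 8.72, 9.52 and 3.92 CPM in the proximal and 6.68, 10.4 and 10.6 CPM in the distal metastases, against 8.86, 38.5 and 37.6 CPM in the primary tumours. Its log2 fold change was -1.78 (SE 0.46, edgeR's quasi-likelihood test, adjusted p = 0.0756, not called). Itga3, the alpha chain of a laminin-332 receptor, had 51.1, 59.7 and 63.1 CPM in the proximal and 57.2, 57.9 and 80.5 CPM in the distal metastases, against 55.3, 172 and 157 CPM in the primary tumours. In both genes primary 1 lay among the metastases and primary 2 and 3 above all of them. For Itga3 the log2 fold change was -1.06 (SE 0.32, edgeR's quasi-likelihood test, adjusted p = 0.107, not called).

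Itga11, a collagen receptor chain of fibroblasts, differed the other way. It had 4.47, 6.30 and 2.11 CPM in the proximal and 6.95, 4.31 and 3.77 CPM in the distal metastases, against 4.14, 1.02 and 0.951 CPM in the primary tumours. Primary 2 and 3 stood below every metastasis, and primary 1 within their range. The log2 fold change of 1.18 (SE 0.60) was not called by edgeR's quasi-likelihood test (adjusted p = 0.246), and without primary 1 it was 2.26 and called. The fibroblast markers Col1a1, Col3a1, Pdgfra, Dcn and Lum summed to 936 to 1945 CPM in the metastases and to 2095, 776 and 1178 CPM in the primary tumours, and their part was not tested. The other 7 alpha chains, Itga1, Itga4, Itga5, Itga7, Itga8, Itga9 and Itga10, had log2 fold changes between -0.96 for Itga7, the muscle laminin receptor chain, and 0.31 for Itga10, a cartilage collagen receptor chain, and all overlapped between the 6 metastases and the primary tumours. By site, Itga9 stood lower without overlap in the proximal and Itga5 higher in the distal metastases, each against the primary tumours.

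In the group of Itgav, Itga2b and their beta partners, 1 of 6 genes fell and the others did not pass the test, where 3.68% of all tested genes were called lower. Their median log2 fold change was -0.05, near the -0.04 of all tested genes. Itgb6 (ENSMUSG00000026971, chromosome 2, 60598292 to 60722643, minus strand) encodes an epithelial chain that pairs with the Itgav chain and activates latent TGF-beta. It had 2.19, 2.22 and 3.16 CPM in the proximal and 1.98, 2.95 and 3.77 CPM in the distal metastases, against 3.84, 56.6 and 45.3 CPM in the primary tumours. Primary 1 stood just above the highest metastasis and primary 2 and 3 far above it. In log2 terms the difference was -3.70 (SE 0.65, edgeR's quasi-likelihood test, adjusted p = 0.0287).

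Itgb8, another beta chain that binds latent TGF-beta, had 4.75, 5.92 and 5.48 CPM in the proximal and 4.28, 4.74 and 4.64 CPM in the distal metastases, against 7.20, 8.04 and 23.0 CPM in the primary tumours. All metastases stood below the primary tumours, but with a log2 fold change of -1.36 (SE 0.37) Itgb8 was not called by edgeR's quasi-likelihood test (adjusted p = 0.0804). Without primary 3 the value was -0.62. Itgav, the shared alpha chain, had 95.3, 84.7 and 83.1 CPM in the proximal and 88.6, 83.4 and 90.7 CPM in the distal metastases, against 83.4, 45.0 and 116 CPM in the primary tumours. All its metastases lay inside the range of the primary tumours. Its log2 fold change was 0.11 (SE 0.25), and -0.19 without primary 2. Gm13684 overlaps exons of Itgav on the other strand. Itgb5, a widely expressed vitronectin receptor chain, had 59.0, 57.7 and 34.5 CPM in the proximal and 69.5, 60.02 and 91.9 CPM in the distal metastases, against 56.3, 73.3 and 82.1 CPM in the primary tumours, a log2 fold change of -0.21 (SE 0.22) with overlap between the 6 metastases and the primary tumours.

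Itga2b, the platelet fibrinogen receptor chain, was set apart by the distal libraries. It had 2.19, 3.88 and 2.74 CPM in the proximal and 3.98, 10.2 and 43.8 CPM in the distal metastases, against 2.90, 2.66 and 2.58 CPM in the primary tumours. Each distal library stood above all others, and distal 3 far above distal 2. Against the primary tumours its log2 fold change in the distal metastases was 2.83 (SE 0.79, edgeR's quasi-likelihood test, adjusted p = 0.165, not called), and 1.40 without distal 3. The platelet genes Pf4, Ppbp, Gp9, Gp1bb and Gp6 summed to 4.02, 5.77 and 4.09 CPM in the proximal and 8.18, 16.9 and 81.5 CPM in the distal metastases, against 8.11, 6.13 and 6.86 CPM in the primary tumours. All 5 were counted in every library and highest in distal 3, and their part in the Itga2b values was not tested. Itgb3, the beta partner of Itga2b, was likewise highest in distal 3, with 5.75, 10.2 and 6.81 CPM in the proximal and 6.80, 9.48 and 26.2 CPM in the distal metastases, against 9.59, 10.5 and 6.66 CPM in the primary tumours.

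Among the 7 leukocyte integrin genes, Itgax fell, 5 did not pass the test and Itgad was not tested, having 39 counts in all and 0 to 12 in a library. Of all tested genes, 3.68% were called lower in this comparison. The median log2 fold change of the 6 leukocyte integrin genes tested was -0.61, against -0.04 for all tested genes. Itgax (ENSMUSG00000030789, chromosome 7, 128129547 to 128150657, plus strand) encodes CD11c, the alpha chain typical of dendritic cells and some macrophages. It had 2.51, 2.60 and 1.35 CPM in the proximal and 1.48, 2.67 and 2.77 CPM in the distal metastases, against 3.22, 12.4 and 16.0 CPM in the primary tumours. All metastases stood below primary 1, the lowest primary tumour. The fitted log2 fold change was -2.24 (SE 0.48, edgeR's quasi-likelihood test, adjusted p = 0.0466).

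The leukocyte genes Ptprc, Cd53, Laptm5, Coro1a and Cd52 summed to 49.95, 141 and 43.0 CPM in the proximal and 62.2, 87.9 and 198 CPM in the distal metastases, against 101, 161 and 231 CPM in the primary tumours. The 5 macrophage markers summed to 114 to 227 CPM in the metastases and to 224, 536 and 364 CPM in the primary tumours. The part of these cells in the Itgax values was not tested. Itgb2, the beta chain shared by several leukocyte integrins, had 9.01, 21.95 and 12.4 CPM in the proximal and 22.6, 21.2 and 69.2 CPM in the distal metastases, against 15.8, 24.95 and 36.3 CPM in the primary tumours. Itgam, the CD11b chain of neutrophils and macrophages, had 3.06, 7.20 and 4.14 CPM in the proximal and 9.75, 7.19 and 25.3 CPM in the distal metastases, against 5.59, 8.08 and 8.12 CPM in the primary tumours. Both were highest in distal 3, and neither was called against the primary tumours. The log2 fold changes were -0.14 (SE 0.48) for Itgb2 and 0.18 (SE 0.45) for Itgam. Itgam shares exon positions with Gm49368 on the same strand.

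Itgae, the CD103 chain by which T cells and dendritic cells bind E-cadherin, had 0.862, 1.66 and 0.808 CPM in the proximal and 0.400, 1.143 and 0.834 CPM in the distal metastases, against 1.83, 1.21 and 3.91 CPM in the primary tumours. Itgae differed by a log2 fold change of -1.30 (SE 0.48, edgeR's quasi-likelihood test, adjusted p = 0.160, not called), and by -0.69 without primary 3. Its beta partner Itgb7 had 1.52, 6.20 and 1.62 CPM in the proximal and 1.93, 2.24 and 3.83 CPM in the distal metastases, against 2.74, 3.98 and 7.50 CPM in the primary tumours, a log2 fold change of -0.72 (SE 0.55) that was -0.22 without primary 3 and -1.20 without proximal 2. Among the metastases both chains were highest in proximal 2. The T cell genes Cd3e, Cd3d, Cd3g, Cd8a and Trac, which were also highest there among the metastases, summed to 1.28, 9.57 and 0.734 CPM in the proximal and 0.525, 1.36 and 2.17 CPM in the distal metastases, against 2.77, 6.56 and 13.4 CPM in the primary tumours. Their part was not tested. Itgal, the LFA-1 alpha chain, had 1.59, 6.43 and 1.18 CPM in the proximal and 1.55, 4.07 and 11.1 CPM in the distal metastases, against 3.81, 5.55 and 8.32 CPM in the primary tumours, with overlapping groups.

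Of the 8 laminin chains outside laminin-332, edgeR's quasi-likelihood test called 0, where 3.68% of all tested genes were called lower and 0.033% higher. Their median log2 fold change was 0.27, against -0.04 for all tested genes. Of the 8, 3 had an unadjusted p below 0.05, Lama4 and Lamc3 higher and Lama5 lower. Of all 18204 tested genes, 4483 had one in either direction. Lama4, an alpha chain of blood vessels and mesenchyme, had 97.1, 97.3 and 87.2 CPM in the proximal and 90.3, 91.9 and 78.3 CPM in the distal metastases, against 88.2, 28.7 and 26.9 CPM in the primary tumours. Primary 1 was at the level of the metastases and primary 2 and 3 below all of them. This gave a log2 fold change of 0.91 (SE 0.38, edgeR's quasi-likelihood test, adjusted p = 0.192, not called), and without primary 1 it was 1.72 and called (adjusted p = 0.000262). The endothelial genes Pecam1, Cdh5, Kdr, Tek and Emcn summed to 84.8 to 145 CPM in the metastases and to 143, 82.3 and 112 CPM in the primary tumours, and their part was not tested.

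Lama5, the alpha chain of most epithelial basement membranes, had 295, 356 and 289 CPM in the proximal and 284, 278 and 299 CPM in the distal metastases, against 271, 711 and 467 CPM in the primary tumours. Primary 1 was the lowest of all 9 libraries and primary 2 the highest. In log2 terms the difference was -0.69 (SE 0.26, edgeR's quasi-likelihood test, adjusted p = 0.169, not called). It was -0.30 without primary 2, and -0.95 and called without primary 1 (adjusted p = 0.00572). Lamb2, a beta chain of mature basement membranes, had 389, 406 and 441 CPM in the proximal and 389.9, 419 and 337 CPM in the distal metastases, against 409, 169 and 227 CPM in the primary tumours. Primary 1 was at the level of the metastases here too. The log2 fold change of 0.56 (SE 0.27) was not called by edgeR's quasi-likelihood test (adjusted p = 0.224), and without primary 1 it was 1.02 and called (adjusted p = 0.00430). It was 0.32 without primary 2.

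Lamc3, a gamma chain of low level here, had 2.48, 8.65 and 7.39 CPM in the proximal and 4.90, 2.12 and 4.97 CPM in the distal metastases, against 2.31, 0.391 and 1.70 CPM in the primary tumours. Its log2 fold change of 1.75 (SE 0.66) was not called by edgeR's quasi-likelihood test (adjusted p = 0.164). Gm13441 overlaps exons of Lamc3 on the other strand. The log2 fold changes of Lama1, Lama2, Lamb1 and Lamc1 lay between -0.87 for Lama2, the muscle laminin chain, and 0.32 for Lamc1, the gamma chain of most laminins, and their groups overlapped.

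Levels were compared between genes as CPM per kilobase of exon sequence. Itgb1 led, at 146 ± 3.68 in the proximal, 156 ± 11.3 in the distal and 142 ± 17.6 in the primary libraries (SD, n = 3 each). Lamb2 followed, at 67.7 ± 4.32, 62.8 ± 6.80 and 44.1 ± 20.6 CPM per kilobase in the proximal, distal and primary libraries. Itga6, at 37.9 ± 7.70 in the proximal and 35.3 ± 1.67 in the distal libraries, and Lamb3, at 38.3 ± 5.57 and 43.4 ± 9.44 there, did not differ beyond their spread. In the primary libraries Itga6 (40.5 ± 17.8), Lama5 (42.4 ± 19.4) and Lamb2 (44.1 ± 20.6) lay within each other's spread. Itgb4 stood at 8.04 ± 1.37 in the proximal, 10.6 ± 2.63 in the distal and 28.3 ± 14.9 CPM per kilobase in the primary libraries. By the mean over all 9 libraries the lowest tested member was Itgae, at 0.242 ± 0.104 in the proximal, 0.173 ± 0.0815 in the distal and 0.505 ± 0.308 CPM per kilobase in the primary libraries. Col17a1 was lower in the metastases, at 0.0999 ± 0.0395 in the proximal and 0.0790 ± 0.0202 CPM per kilobase in the distal libraries, and Lamc3 was the lowest tested member in the primary libraries, at 0.241 ± 0.161. With the longest transcript as length, Itga6 had a mean of 79.4 CPM per kilobase over the 9 libraries in place of 37.9. Itga6 then stood above Lamb2, at 62.9, and Itgb1 stayed first.

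Between the distal and the proximal metastases edgeR's quasi-likelihood test called 0 of 39 members and 0% of all genes, and DESeq2 and both limma-voom fits called 0 members. At an unadjusted p below 0.05 there were 5 members higher and 0 lower in the distal metastases, where 1.79% and 0.269% of all tested genes were. This count was 1, Itga2b alone, without distal 3 or without proximal 1, 2 without proximal 3, and 4 to 6 without any other library. With all libraries the 5 were Itga2b (log2 fold change 2.72, SE 0.78), Itgam (1.55, SE 0.53), Itgb2 (1.38, SE 0.56), the fibronectin receptor chain Itga5 (0.82, SE 0.29) and the tenascin receptor chain Itga9 (0.66, SE 0.24). Itga5 had 34.5, 29.3 and 57.7 CPM in the distal and 20.5, 29.2 and 19.2 CPM in the proximal metastases. Itga9 had 13.6, 16.1 and 21.8 CPM in the distal and 9.61, 11.6 and 11.4 CPM in the proximal metastases. Without distal 3 the log2 fold change was 1.27 for Itga2b, 0.82 for Itgam and 0.60 for Itgb2. All 5 genes were highest in distal 3, which among the metastases also had the highest platelet and leukocyte sums, and the part of those cells was not tested. Without overlap, 4 members stood higher (Itga2b, Itga5, Itga9 and Itgb5) and 1 lower (Itgb8), where 4.03% and 3.6% of all tested genes did so. Col17a1, Dst, Itga6, Itgb4, Lama3, Lamb3 and Plec had log2 fold changes between -0.34 for Col17a1 and 0.40 for Itgb4, and each overlapped.

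Partners of the members were set beside them in lists. Of 29 adaptors, kinases and other partners of integrins within or beside the cell membrane, 2 fell in both metastatic sites against the primary tumours and none rose, where 3.68% of all tested genes were called lower, with a median log2 fold change of 0.02. Fermt1, which encodes kindlin-1, an integrin activator of epithelia, had 0.131, 1.61 and 0.0490 CPM in the proximal and 0.150, 0.286 and 0.167 CPM in the distal metastases, against 9.21, 48.8 and 53.3 CPM in the primary tumours. Its groups did not overlap, and the log2 fold change was -6.72 (SE 0.99, edgeR's quasi-likelihood test, adjusted p = 0.0198). Tns4, a tensin that binds beta chain tails, had 0.522, 2.42 and 0.343 CPM in the proximal and 0.675, 0.619 and 0.333 CPM in the distal metastases, against 33.0, 6.25 and 154 CPM in the primary tumours. It too did not overlap, with a log2 fold change of -6.37 (SE 0.99, edgeR's quasi-likelihood test, adjusted p = 0.0220). Tns1, another tensin, had a log2 fold change of -1.08 (SE 0.29, edgeR's quasi-likelihood test, adjusted p = 0.0825, not called). Fermt2, named after its values were seen, encodes the widely expressed kindlin-2 and had 201, 188 and 184 CPM in the proximal and 199, 179 and 185 CPM in the distal metastases, against 164, 39.2 and 80.4 CPM in the primary tumours. All metastases stood higher, and the log2 fold change of 1 (SE 0.38) was not called by edgeR's quasi-likelihood test (adjusted p = 0.171).

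Of 22 partners of laminin in the basement membrane, 1 fell and none rose, a share near the 3.68% of all tested genes called lower, with a median log2 fold change of -0.21. Egflam, which encodes the dystroglycan ligand pikachurin, had 4.28, 5.61 and 4.24 CPM in the proximal and 2.90, 2.14 and 2.30 CPM in the distal metastases, against 4.16, 24.9 and 34.2 CPM in the primary tumours. The fitted log2 fold change was -2.63 (SE 0.52, edgeR's quasi-likelihood test, adjusted p = 0.0365), although primary 1 lay below all 3 proximal metastases. Col7a1, the anchoring fibril collagen beneath hemidesmosomes, had 4.49, 5.64 and 4.16 CPM in the proximal and 4.98, 5.24 and 5.30 CPM in the distal metastases, against 3.49, 14.5 and 47.5 CPM in the primary tumours. Primary 1 was the lowest library, and the log2 fold change of -2.13 (SE 0.61) was not called by edgeR's quasi-likelihood test (adjusted p = 0.0951). Agrn, encoding the laminin-binding proteoglycan agrin, had a log2 fold change of -1.52 (SE 0.40, edgeR's quasi-likelihood test, adjusted p = 0.0750, not called).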

How the data were processed

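Gene counts of 9 libraries were read as deposited. Per the labels, RNA was taken from frozen tissue with a Qiagen kit and sequenced by standard Illumina methods. The submitters' processing notes list HTSeq 0.6.0, TopHat2 2.1.0, DESeq2 1.14.1, Bowtie2 2.2.6.0, R 3.2.3, FastQC 0.11.4 and the build GRCm38.p3. Neither the annotation release nor the strand setting is given in the sources used here. Of 47069 Ensembl IDs, 46488 matched a symbol and 581 did not. Positions and lengths came from GENCODE M21 (GRCm38) and promoters from RefSeq (GRCm38.p6).

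Counts were fitted with edgeR 4.0.16 (R 4.3.3, trimmed mean of M values, filterByExpr with a minimum count of 10 and a minimum total of 15, robust quasi-likelihood F test), all 9 libraries in 1 fit with 6 residual degrees of freedom. Of the genes, 18204 were tested and 28865 not. The SE of a log2 fold change was taken as its size over the root of its F statistic. The test was first checked on simulated data in which each gene had the same dispersion in every group. That check cannot speak to the wider spread among the primary tumours here. CPM and CPM per kilobase were computed here. No pair of libraries agreed within sampling noise, since chi-square per gene was at least 23.03 for every pair.

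Alternatives were DESeq2 1.42.0, limma 3.58.1 voom and voom with quality weights, the last chosen after seeing the data. Size factors by median ratio within edgeR and other filters on low counts were also used. So were fits on the compared groups alone, each library left out in turn, and the longest transcript as length. Values per library are given for called members, all hemidesmosome and laminin-332 genes, and in each other role group the 3 smallest p values and the 2 highest levels per length, with a few more. In each partner list the 3 smallest p values are named. The members, lists and tests were chosen with earlier results of these data known. The further engineered allele and 1 member's own values are not reported here, though counts over members include that member.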

Additional observations from a re-analysis of the deposited data

How the results depend on the processing

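Counts of called genes depended on the test and on single libraries. For the proximal metastases against primary, edgeR called 9 of all genes. The count was 15 with size factors by median ratio, 1486 with DESeq2, 1 with limma-voom and 26 without a filter. It was 23 with at least 1 CPM in 3 libraries, 3607 with quality weights and 0 with the compared groups alone. On leaving out 1 library it was 0 to 5447. The members called were 0, and 9 with DESeq2, 11 with quality weights and 0 to 15 on leaving out 1 library. For the distal metastases against primary, 16 of all genes were called, 1444 with DESeq2, 1 with limma-voom, 3126 with quality weights, 0 with the compared groups alone and 0 to 5203 on leaving out 1 library. The members called were 0, and 9 with DESeq2, 14 with quality weights and 0 to 15 on leaving out 1 library. Distal against proximal, 0 of all genes were called, 85 with DESeq2 and 0 to 38 on leaving out 1 library, and 0 members in each. For both sites against primary, 676 of all genes were called, 2590 with DESeq2, 97 with limma-voom, 3871 with quality weights and 22 to 6618 on leaving out 1 library. The 5 members called became 11 with DESeq2, 0 with limma-voom, 2 with at least 1 CPM in 3 libraries, 14 with quality weights and 0 to 16 on leaving out 1 library (16 without primary 1). The members' median log2 fold change ran over the alternatives from -0.71 to -0.199 proximal against primary (-0.58 in the fit reported), from -0.608 without distal 3 to 0.088 without primary 3 distal against primary (-0.197), from -0.042 to 0.188 distal against proximal (0.071), and from -0.585 to -0.013 for both sites against primary (-0.302).

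Of 1638 values of named members, 1451 kept their direction and side of the threshold, 99 passed it, 47 lost it and 41 changed sign, all of members at most 0.55 in size in the fit reported. With quality weights, proximal against primary, Itgav was -0.23; distal against primary, Itgb2 was -0.10, Itgb5 -0.12 and Itgav -0.26; distal against proximal, Itgb7 was 0.073 (0.022 with limma-voom) and Itgax -0.026; both sites against primary, Itgav was -0.24 and Itgam -0.17. On leaving out 1 library, log2 fold changes that changed sign ran, proximal against primary, from -0.19 to 0.45 for Itgav, -0.027 to 0.137 for Itgb1, -0.28 to 0.33 for Itga6 and -0.12 to 0.30 for Itga2b. Distal against primary they ran from -0.11 to 0.21 for Itgb5, -0.19 to 0.45 for Itgav, -0.37 to 0.23 for Itga6 and -0.22 to 0.89 for Itgb2. Distal against proximal they ran from -0.044 to 0.249 for Dst, -0.041 to 0.066 for Itgav, -0.58 to 0.76 for Itgb7, -0.212 to 0.072 for Itga6, -0.44 to 0.01 for Lama3, -0.15 to 0.34 for Itgax, -0.10 to 0.61 for Itga11, -0.01 to 0.25 for Itga3, -0.004 to 0.31 for Lamb3 and -0.033 to 0.409 for Itgb6. For both sites they ran from -0.19 to 0.45 for Itgav, -0.52 to 0.20 for Itgb2, -0.33 to 0.28 for Itga6 and -0.18 to 0.35 for Itgam. With the longest transcript as length, 5 of 26 levels moved, to means of 2.63 for Dst, 79.4 for Itga6, 12.1 for Itgav, 12.6 for Lama4 and 47.9 CPM per kilobase for Lamb3. The cause was not tested. No paired analysis was possible because the labels do not say which libraries came from the same mouse, and the library numbers are names only. Precision is limited by 3 libraries a group and the wide spread among the primary tumours.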

Other observations

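Among 21 soluble and matrix ligands of integrins, 1 fell in both metastatic sites against the primary tumours and none rose, a share near the 3.68% of all tested genes called lower, with a median log2 fold change of -0.42. Ccn2, which encodes a matricellular protein also known as CTGF, had 37.5, 43.2 and 39.5 CPM in the proximal and 48.0, 75.9 and 91.2 CPM in the distal metastases, against 78.6, 302 and 154 CPM in the primary tumours. The groups overlapped at primary 1, and the log2 fold change was -1.73 (SE 0.37, edgeR's quasi-likelihood test, adjusted p = 0.0458). Icam1, the counter-receptor of leukocyte integrins, had 7.52, 17.5 and 9.06 CPM in the proximal and 9.25, 11.2 and 14.5 CPM in the distal metastases, against 15.3, 42.3 and 48.2 CPM in the primary tumours. Its log2 fold change was -1.61 (SE 0.39, edgeR's quasi-likelihood test, adjusted p = 0.0635, not called). The third smallest p of the list belonged to Fbln1, a basement membrane fibulin, with a log2 fold change of -1.28 (SE 0.40, edgeR's quasi-likelihood test, adjusted p = 0.115, not called).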
